A study of Homo sapiens with 6 samples.

Results

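The genes described here encode the parts of the nuclear pore complex and the receptors that carry cargo through it. They were taken by symbol: NUP, IPO, XPO, TNPO, KPNA or KPNB followed by a number, with NUP50-DT left out, and AAAS, TPR, AHCTF1, SEH1L, SEC13, RANBP2, POM121, NDC1, RAE1 and GLE1 by name, with the brightest probe set standing for each gene. Of 14884 genes measured on the arrays, 51 belonged to this set. RefSeq lists 56 protein-coding genes under the same rule, of which 50 were measured. The other 6 (AAAS, KPNA2, NUP62, SEC13, TPR and XPO1) were not analysed here, and the remaining member, NUP210P1, is a transcribed pseudogene. No gene was left out for a low value, so all 51 members were tested.

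The arrays read RNA from U-2 OS, a human osteosarcoma line, at 4 days after infection with a retrovirus, following 3 days of selection in puromycin at 5 µg/ml. S22A-progerin cells (3 arrays) carried a vector for progerin in which the serine at residue 22 is alanine, and wt-progerin cells (3 arrays) carried a vector for progerin without that change. Progerin is the truncated form of lamin A found in Hutchinson-Gilford progeria, and it stays attached to the nuclear membrane. Both groups therefore carried progerin, and no array of uninfected or empty-vector cells was analysed here. The replicates of each group are described as independent, and both groups come from a single cell line. Differences are S22A-progerin minus wt-progerin in log2 units.

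The nuclear pore complex is a large ring set into the nuclear envelope. A scaffold of outer and inner rings, anchored by membrane proteins, holds flexible FG-rich nucleoporins that fill the channel, with filaments on the cytoplasmic side and a basket inside the nucleus. Importins bring proteins into the nucleus and exportins take cargo out, both steered by the small GTPase Ran, and the complex meets the lamina through its basket and rings.

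Of the 16 measured outer ring, inner ring and membrane genes, 13 were lower in S22A-progerin cells and none higher, at an adjusted p under 0.05 (limma, Benjamini-Hochberg over all genes). Of all 51 members, 24 were lower and 4 higher, which is 47.1% lower and 7.84% higher. Over all genes measured, 14.6% were lower and 10.8% higher. The median difference of the members was -0.19, beside -0.00367 for all genes. The changes were modest: 2 members, NUP210 and KPNA7, passed the test with a fold of at least 1.5. In 32 members (62.7%) every S22A-progerin array lay below every wt-progerin array, and in 7 (13.7%) every one lay above, against 23.6% and 18.5% of all genes. Members were mostly bright on the array. In the brightest tertile of genes by mean over the 6 arrays, 21 of 40 members were lower, against 25.6% of all genes there, and 2 were higher, against 14.2%. Every S22A-progerin array lay below every wt-progerin array in 67.5% of these 40 members, against 40.6% of all genes in that tertile. The median differences there were -0.19 for the members and -0.05 for all genes.

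**Figure D1:**
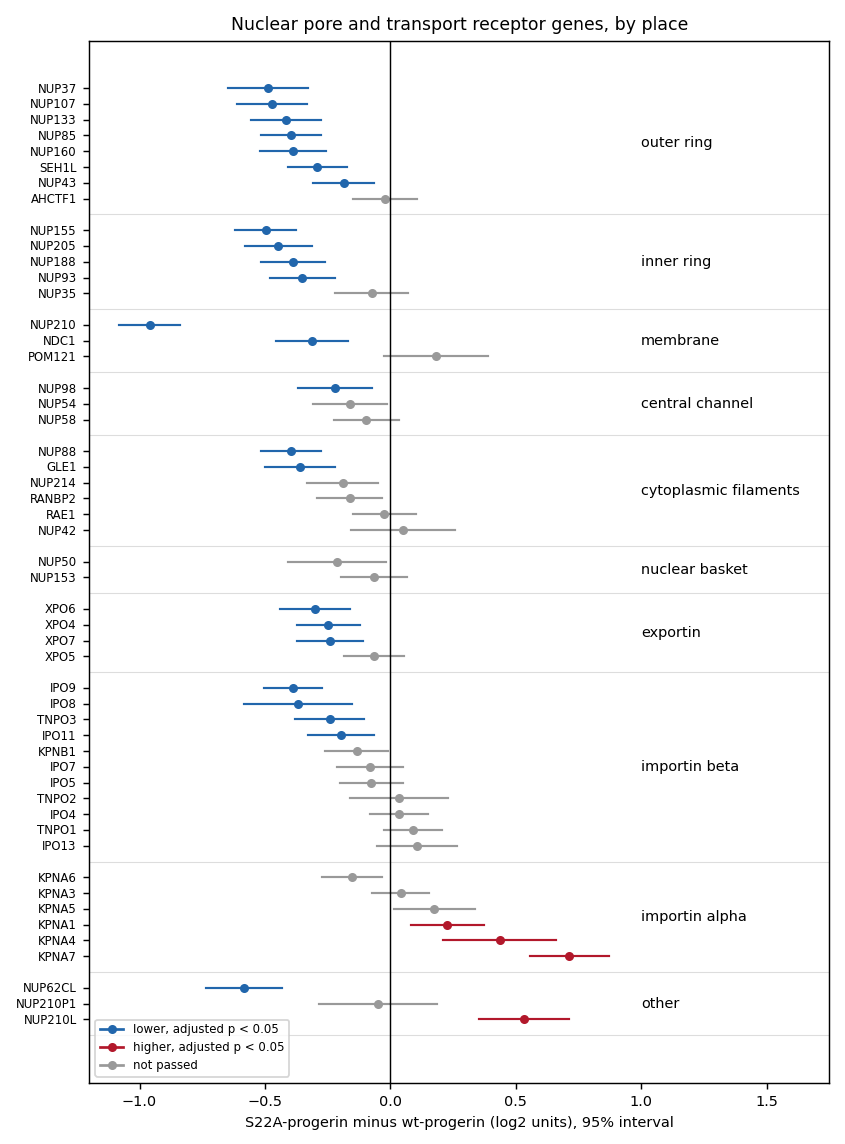
Difference between S22A-progerin and wt-progerin for each of the 51 genes, in log2 units on the horizontal axis, with genes grouped by place in the pore or transport family. Points are limma estimates, bars are 95% intervals, and colour marks the call. The outer and inner ring genes lie left of 0, NUP210 lies farthest left at -0.96, and the rises among importin alpha genes reach 0.71 in KPNA7.

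The 6 arrays were alike in overall scale, with medians of 6.05 to 6.09 in S22A-progerin and 6.04 in each wt-progerin array. Over all probe sets, arrays correlated at 0.989 to 0.993 within S22A-progerin, at 0.992 to 0.993 within wt-progerin and at 0.983 to 0.986 between the groups. S22A-progerin replicate 3 stood apart on the second principal component, at -15.5, against 6.51 and 9.29 for replicates 1 and 2. Without that array 23 members were lower and 4 higher. LMNA, the gene of lamin A and progerin, averaged 8.29 ± 0.024 in S22A-progerin and 8.14 ± 0.036 in wt-progerin (SD, n = 3 arrays each), a difference of 0.15 that did not pass (adjusted p = 0.0796, limma). A repeated quantile normalization brought it past the threshold (adjusted p = 0.0456), as did dropping the dimmer 50% of genes (adjusted p = 0.0237).

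Markers of the cell line and of other cell types were read beside the pore genes. Of 37 such markers 23 were measured. Those not analysed here include the mesenchymal genes COL1A1, COL1A2, COL5A1, COL6A1, COL6A2, SPARC, ALPL and BGLAP. PTPRC, CD3E, CD79A and CDH1 are also among them. Of 6 measured mesenchymal markers 3 (FN1, RUNX2 and THY1) were lower, against 14.6% of all genes. FN1 (12.07 in S22A-progerin and 12.50 in wt-progerin) and VIM (10.83 in S22A-progerin and 10.89 in wt-progerin) were bright. Among osteoblast genes on the list, IBSP (3.88 in S22A-progerin and 3.86 in wt-progerin) and SP7 (6.24 in S22A-progerin and 6.25 in wt-progerin) were low. RUNX2 was brighter, at 8.03 in S22A-progerin and 8.77 in wt-progerin. Among 7 epithelial markers 1 (KRT18, 14.3%) was higher and among 4 leukocyte markers 1 (CD68) was higher, against 10.8% of all genes. CD68 read 9.80 in S22A-progerin and 8.32 in wt-progerin, a difference of 1.48. The other leukocyte markers, CD14, LYZ and TYROBP, overlapped between the groups, with differences of 0.17 to 0.26. None of the 3 endothelial or 3 neural markers passed. The mean level of the leukocyte list, CD68 included, was 6.72 to 6.92 in S22A-progerin and 6.28 to 6.39 in wt-progerin. That of the epithelial list was 7.52 to 7.58 in S22A-progerin and 7.54 to 7.70 in wt-progerin. The part of these markers in the pore gene results was not tested.

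The outer ring, or Y complex, is the scaffold that coats both faces of the pore. Of its 8 measured genes 7 were lower and none higher, with a median of -0.39, or 1.31-fold lower. NUP107, the core member for which the complex is often named, read 8.31, 8.29 and 8.18 in the S22A-progerin arrays, against 8.70, 8.72 and 8.78 in the wt-progerin arrays. NUP133, its direct partner in the stem of the Y, read 9.05, 9.00 and 8.92 in S22A-progerin, against 9.42, 9.35 and 9.45 in wt-progerin. In both genes every S22A-progerin array lay below every wt-progerin array, and the differences were -0.47 (SE 0.060, adjusted p = 0.00151, limma) and -0.42 (SE 0.059, adjusted p = 0.00249). NUP160, which lies in an arm of the Y, read 9.47, 9.38 and 9.51 in S22A-progerin, against 9.86, 9.84 and 9.83 in wt-progerin (difference -0.39). NUP85, in the other arm, read 9.50, 9.50 and 9.52 in S22A-progerin, against 9.90, 9.94 and 9.86 in wt-progerin (difference -0.40). Both fell by about the same amount and again without overlap (adjusted p = 0.00259 for NUP160 and 0.00155 for NUP85).

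NUP37 and NUP43 are beta-propeller proteins on the arms of the Y that budding yeast lacks. NUP37 read 7.49, 7.31 and 7.43 in S22A-progerin, against 7.90, 7.84 and 7.95 in wt-progerin, and its fall of 1.40-fold was the largest of the outer ring (adjusted p = 0.0022, limma). NUP43 differed less, at 10.04, 10.05 and 10.09 in S22A-progerin, against 10.24, 10.21 and 10.29 in wt-progerin. Its difference of -0.19 passed with all arrays (adjusted p = 0.0351), but not without S22A-progerin replicate 1 (0.0873) or 2 (0.0820), nor without wt-progerin replicate 1 (0.0985), 2 (0.0741) or 3 (0.127). SEH1L, which is shared between the pore and a regulator of mTORC1, read 11.09, 11.08 and 11.10 in S22A-progerin, against 11.37, 11.36 and 11.42 in wt-progerin (difference -0.29, adjusted p = 0.00532). AHCTF1, which encodes ELYS, the protein that seeds pore assembly on chromatin after mitosis, was the outer ring gene that did not pass. It averaged 10.50 ± 0.059 in S22A-progerin and 10.52 ± 0.018 in wt-progerin (SD, n = 3 arrays each), with a 95% interval of the difference of -0.15 to 0.11.

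The inner ring links the scaffold to the membrane and to the channel. Of its 5 genes 4 were lower and none higher, with a median of -0.39. NUP155, which sits at the membrane side of the inner ring, read 10.76, 10.74 and 10.67 in S22A-progerin, against 11.23, 11.22 and 11.21 in wt-progerin. That is 1.41-fold lower, with a difference of -0.50 (SE 0.052, adjusted p = 6.39e-04, limma). NUP205 and NUP188 are large related proteins that form the bulk of the ring. NUP205 read 9.39, 9.30 and 9.27 in S22A-progerin, against 9.72, 9.79 and 9.79 in wt-progerin (difference -0.45). NUP188 read 10.30, 10.26 and 10.33 in S22A-progerin, against 10.64, 10.74 and 10.67 in wt-progerin (difference -0.39). NUP93, the linker that ties these proteins to the channel, read 10.65, 10.55 and 10.61 in S22A-progerin, against 11.00, 10.92 and 10.95 in wt-progerin (difference -0.35). In each of these 4 genes the groups did not overlap. NUP35, a membrane-binding member, overlapped between the groups, at 6.64, 6.59 and 6.75 in S22A-progerin and 6.70, 6.78 and 6.72 in wt-progerin (difference -0.07, adjusted p = 0.438).

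Of the 3 membrane genes, 2 were lower. NUP210, a glycoprotein that spans the envelope and whose level is known to vary between tissues, showed the largest difference of all 51 members. It read 7.09, 7.12 and 7.05 in S22A-progerin, against 8.01, 8.04 and 8.07 in wt-progerin, 1.94-fold lower (difference -0.96, SE 0.051, 95% interval -1.08 to -0.84, adjusted p = 4.95e-05, limma). The SD within the groups was small beside that gap, at 0.0345 in S22A-progerin and 0.0296 in wt-progerin. The S22A-progerin mean of NUP210, 7.08, lay near that of the leukocyte marker TYROBP, 6.88. Without a detection call, background may limit the size of its fall. NDC1, a membrane protein needed for pore assembly, read 10.68, 10.61 and 10.52 in S22A-progerin, against 10.95, 10.88 and 10.92 in wt-progerin (difference -0.31, adjusted p = 0.00951). POM121, which has the near-identical copy POM121C, overlapped between the groups, at 8.37, 8.27 and 8.58 in S22A-progerin and 8.29, 8.20 and 8.18 in wt-progerin (difference 0.18, adjusted p = 0.19). POM121C itself differed by 0.00637 (adjusted p = 0.958), and how far probes of these copies share signal was not tested.

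**Figure D2:**
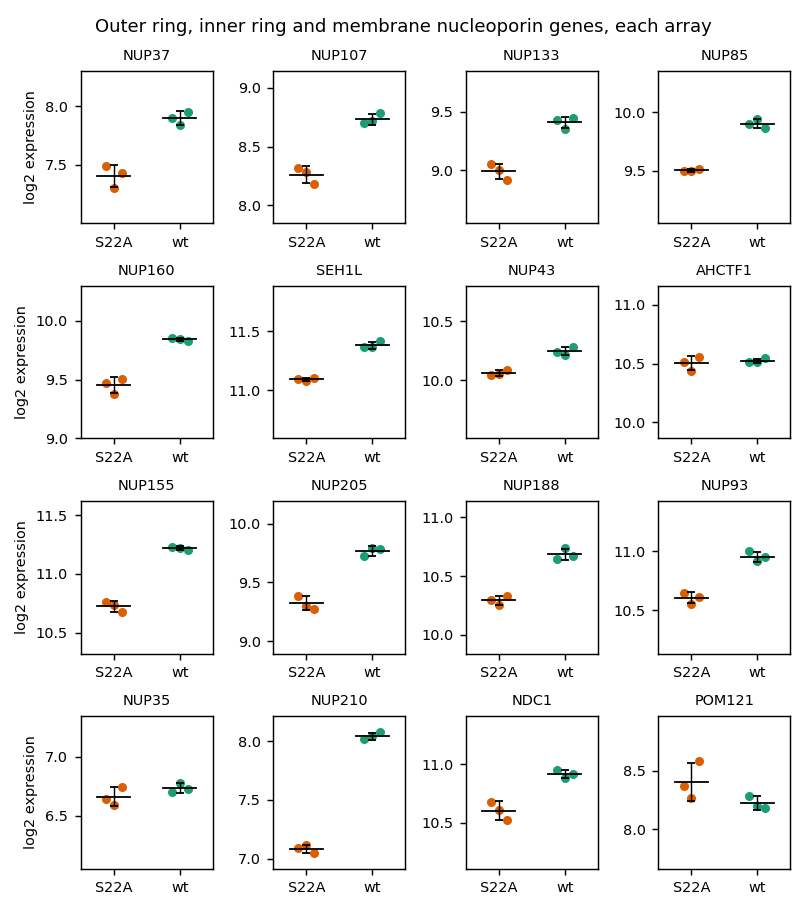
Log2 expression of the outer ring genes (NUP37 to AHCTF1), inner ring genes (NUP155 to NUP35) and membrane genes (NUP210, NDC1 and POM121) in each array, S22A-progerin on the left of each panel and wt-progerin on the right. Points are arrays, horizontal lines are means and error bars are SDs (n = 3), and every panel spans the same range of log2 units. Every S22A-progerin array lies below every wt-progerin array in 13 of the 16 panels, and the groups overlap in AHCTF1, NUP35 and POM121. Over all genes 23.6% were parted in this direction, and 40.6% of those in the brightest tertile.

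The sequence just upstream of the start is shown for NUP210, NUP155, NUP107 and NUP88, the 4 genes chosen to mark this set, all of which were lower. Each stretch is the 200 bases before the RefSeq start site (GRCh38.p14), 5′ to 3′ on the gene's strand. They lie at chr3:13420323-13420522 (minus strand) for NUP210, chr5:37371107-37371306 (minus) for NUP155, chr12:68686778-68686977 (plus) for NUP107 and chr17:5419663-5419862 (minus) for NUP88. Capitals mark matches, on either strand, to the CCAAT box (CCAAT), the cell cycle CHR element (TTTGAA), an E2F motif (TTCCCGC or TTGGCGC), the NRF1 core (GCATGCG) or an ETS site (CCGGAAG).
NUP210: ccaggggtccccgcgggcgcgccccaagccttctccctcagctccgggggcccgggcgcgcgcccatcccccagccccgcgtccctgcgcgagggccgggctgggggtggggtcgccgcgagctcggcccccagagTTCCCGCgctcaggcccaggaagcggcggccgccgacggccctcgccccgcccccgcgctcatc
NUP155: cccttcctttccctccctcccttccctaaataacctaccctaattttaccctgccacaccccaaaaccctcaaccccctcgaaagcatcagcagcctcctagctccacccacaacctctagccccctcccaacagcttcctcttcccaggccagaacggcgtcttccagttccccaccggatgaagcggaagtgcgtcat
NUP107: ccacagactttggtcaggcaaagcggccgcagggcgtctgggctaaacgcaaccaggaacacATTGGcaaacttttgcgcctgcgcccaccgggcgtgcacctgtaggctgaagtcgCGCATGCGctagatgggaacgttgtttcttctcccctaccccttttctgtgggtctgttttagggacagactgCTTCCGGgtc
NUP88: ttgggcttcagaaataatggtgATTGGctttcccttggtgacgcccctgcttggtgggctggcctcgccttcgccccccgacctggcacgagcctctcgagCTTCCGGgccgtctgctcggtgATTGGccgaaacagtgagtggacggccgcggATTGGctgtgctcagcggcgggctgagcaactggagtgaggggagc
In NUP210 the match is an E2F motif at -64 to -58 from the start. NUP155 had no match before the start and a pair of E2F motifs after it, at 7 to 13 and 23 to 29. NUP107 holds an NRF1 core read on both strands, whose 2 matches overlap, between a CCAAT box and an ETS site, and after the start it has a second ETS site at 11 to 17 and an E2F motif at 21 to 27. NUP88 holds 3 CCAAT boxes in reverse and 1 ETS site.

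Promoter windows of 300 bases, 250 before and 50 after the start, were found for 42 members, and a gene counts where any of its windows holds the motif. An E2F motif was present in 7 of 21 lower members with a window (33.3%) and in 5 of 19 members that did not pass (26.3%), against 15.6% of the 9707 tested protein-coding genes and 11.0% of the 27305 genes with a window. CHR elements were present in 6 lower members (28.6%) and 4 that did not pass (21.1%), against 15.2% of tested protein-coding genes and 18.2% of all genes with a window. For the CCAAT box the shares were 52.4%, 36.8%, 42.2% and 39.7% in the same order. ETS sites were present in 33.3% of the lower members and 36.8% of those that did not pass, against 17.9% and 12.2% in the wider sets. NRF1 cores were present in 9.52% and 10.5%, against 6.48% and 4.74%. Of the 2 higher members with a window, 1 holds an E2F motif, 1 holds a CCAAT box, and neither holds a CHR element, an NRF1 core or an ETS site. These matches are descriptions of letters only, and no factor's binding was measured.

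Central channel genes encode the FG-rich proteins that form the diffusion barrier. Of 3 measured genes 1 was lower (33.3%), against 14.6% of all genes and 25.6% of those in the brightest tertile. NUP98, an FG protein found on both faces of the pore, read 10.72, 10.67 and 10.55 in S22A-progerin, against 10.85, 10.89 and 10.87 in wt-progerin (difference -0.22, adjusted p = 0.0388, limma). The groups did not overlap, but the call was lost without S22A-progerin replicate 2 (adjusted p = 0.0733) or 3 (0.0657), and without wt-progerin replicate 1 (0.0898), 2 (0.114) or 3 (0.108). A repeated quantile normalization ended it too (0.0778). NUP54 (difference -0.16, adjusted p = 0.104) and NUP58 (-0.10, adjusted p = 0.252), which form a channel complex with the unmeasured NUP62, did not pass, although their groups did not overlap either. NUP54 passed once the dimmer 50% of genes were dropped (adjusted p = 0.0352).

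On the cytoplasmic side, where filaments release mRNA and dock transport complexes, 2 of 6 genes were lower (33.3%) and none higher. That compares with 14.6% lower over all genes and 25.6% in the brightest tertile. NUP88, which anchors the filament complex, read 10.57, 10.55 and 10.50 in S22A-progerin, against 10.94, 10.92 and 10.95 in wt-progerin. GLE1, the activator of the helicase that strips exported mRNA of its proteins, read 9.35, 9.30 and 9.23 in S22A-progerin, against 9.68, 9.69 and 9.59 in wt-progerin. Groups did not overlap in either gene, and the falls were 1.32-fold for NUP88 (adjusted p = 0.00152, limma) and 1.28-fold for GLE1 (adjusted p = 0.0045). NUP214, the FG partner of NUP88, averaged 10.05 ± 0.085 in S22A-progerin and 10.24 ± 0.007 in wt-progerin (SD, n = 3 arrays each) and lay just outside the threshold (difference -0.19, adjusted p = 0.0581). It passed without S22A-progerin replicate 3 (adjusted p = 0.0324) with the array medians aligned (0.0384), with array weights (0.0347), with the trended, robust variance prior (0.00864) and once the dimmer 50% of genes were dropped (0.0154). Its second probe set differed by -0.22 and did not pass (adjusted p = 0.161). RANBP2, the giant filament protein and SUMO ligase, differed by -0.16 (adjusted p = 0.0738). It passed as lower once the dimmer 50% of genes were dropped (adjusted p = 0.0214) and with the trended, robust variance prior (0.0128). RANBP2 belongs to a family with near-identical copies, so its probe set may not read it alone. RAE1 (-0.02) and NUP42 (0.05), both tied to mRNA export, overlapped between the groups.

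In the fit to all genes neither measured gene of the nuclear basket passed. NUP50, a mobile FG protein that helps importin alpha release its cargo, read 7.80, 7.78 and 7.52 in S22A-progerin and 7.90, 7.91 and 7.92 in wt-progerin (difference -0.21, adjusted p = 0.111, limma). NUP50 passed as lower once the dimmer 50% of genes were dropped (adjusted p = 0.0387). Its S22A-progerin SD of 0.159 came from replicate 3, while the wt-progerin SD was 0.00748. NUP153, the basket protein that binds the lamina, read 11.25, 11.29 and 11.19 in S22A-progerin and 11.29, 11.27 and 11.36 in wt-progerin (difference -0.07, 95% interval -0.20 to 0.07). NUP50-DT, the noncoding transcript next to NUP50 that is no member and was looked at after its value was seen, went the other way. It read 7.07, 7.15 and 7.09 in S22A-progerin, against 6.52, 6.44 and 6.52 in wt-progerin (difference 0.61, adjusted p = 3.41e-04).

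Over the structural pore genes as a whole, 16 of 27 placed genes were lower and none higher, with a median of -0.29. The share of calls was not even across the pore in the fit to all genes. Of the 13 outer and inner ring genes 11 (84.6%) were lower, against 3 of the 11 genes (27.3%) of the channel, filaments and basket. The latter share of calls lies near the 25.6% of all genes in the brightest tertile, and over all genes it was 14.6%. Their values were nevertheless shifted the same way. In 8 of these 11 genes (72.7%) every S22A-progerin array lay below every wt-progerin array, against 40.6% in the brightest tertile. Their median difference was -0.16, beside -0.39 for the ring genes and -0.05 for all genes in the brightest tertile. The 3 membrane genes, of which 2 were lower, are in neither group. The pooling of places was not planned. The contrast depends on the processing. Once the dimmer 50% of genes were dropped, the counts were 11 of 12 and 7 of 11. With the trended, robust variance prior they were 11 of 13 and 5 of 11. Of all genes, 2365 of 7442 were lower with the dimmer genes dropped and 2645 of 14884 with that prior. No test of the difference between these groups of genes was made.

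Transport receptors were split by family. Of 21 genes 7 were lower (33.3%) and 3 higher (14.3%), with a median of -0.08. Over all genes 14.6% were lower and 10.8% higher. In the brightest tertile the shares were 25.6% and 14.2%, near those of the receptors. The importin alpha genes encode the adaptors that recognise classical nuclear localisation signals, and of 6 measured 3 were higher and none lower in the fit to all genes, with a median of 0.20. KPNA7, an importin alpha known mainly from oocytes and early embryos, read 6.24, 6.34 and 6.26 in S22A-progerin, against 5.68, 5.54 and 5.49 in wt-progerin. It was 1.64-fold higher (difference 0.71, SE 0.067, adjusted p = 4.02e-04, limma), but from values at which, without a detection call, expression cannot be told from background. KPNA4, an adaptor for the NF-kB proteins among other cargo, read 10.73, 11.00 and 10.64 in S22A-progerin, against 10.39, 10.30 and 10.37 in wt-progerin. Its difference of 0.44 (SE 0.095, adjusted p = 0.015) was led by S22A-progerin replicate 2. It no longer passed without wt-progerin replicate 2 (adjusted p = 0.0531).

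KPNA1, another of these adaptors, read 9.44, 9.40 and 9.56 in S22A-progerin, against 9.26, 9.27 and 9.20 in wt-progerin. The groups did not overlap and the difference of 0.23 passed (adjusted p = 0.0343, limma). The call was lost without S22A-progerin replicate 1 (adjusted p = 0.0645) or 3 (0.0623), without wt-progerin replicate 1 (0.0867), 2 (0.0779) or 3 (0.116), and with the array medians aligned (0.0634). KPNA3, the closest relative of KPNA4, read 11.35, 11.37 and 11.34 in S22A-progerin and 11.29, 11.32 and 11.32 in wt-progerin (difference 0.04, adjusted p = 0.587). KPNA5, of the same subfamily as KPNA1, differed by 0.18 (adjusted p = 0.107) and passed without S22A-progerin replicate 3 (0.0337) and once the dimmer 50% of genes were dropped (0.0367). KPNA6, the third member of that subfamily, was the single importin alpha gene with a negative difference, at -0.15 (adjusted p = 0.0684). KPNA6 passed as lower once the dimmer 50% of genes were dropped (adjusted p = 0.0192) and with the trended, robust variance prior (0.00627).

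The importin beta family encodes the carriers that cross the channel. Of 11 genes 4 were lower (36.4%) and none higher, with a median of -0.08. The background was 14.6% lower over all genes and 25.6% in the brightest tertile. IPO9, a carrier of histones, read 10.76, 10.71 and 10.77 in S22A-progerin, against 11.12, 11.13 and 11.15 in wt-progerin, 1.31-fold lower (adjusted p = 0.00158, limma). IPO8, linked to SMAD and Argonaute transport, read 8.85, 8.74 and 8.54 in S22A-progerin, against 9.06, 9.00 and 9.18 in wt-progerin (difference -0.37, adjusted p = 0.025). The groups were parted in both, though IPO8 was the more scattered and did not pass without S22A-progerin replicate 2 (adjusted p = 0.0603) or wt-progerin replicate 1 (0.065) or 3 (0.0863).

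TNPO3, a carrier of serine and arginine-rich splicing factors, differed by -0.24 (adjusted p = 0.0221, limma), and IPO11, a carrier of ubiquitin-conjugating enzymes, by -0.20 (adjusted p = 0.0395). Neither call held in every fit with 1 array left out. The differences stayed at -0.28 to -0.21 for TNPO3 and -0.23 to -0.15 for IPO11 over the alternative fits. TNPO3 no longer passed without S22A-progerin replicate 2 (adjusted p = 0.0631) or wt-progerin replicate 2 (0.0818) or 3 (0.0666). IPO11 no longer passed when any 1 of the 6 arrays was left out (adjusted p = 0.0539 to 0.128). KPNB1, importin beta itself, which pairs with the importin alpha adaptors, read 12.03, 12.08 and 12.09 in S22A-progerin and 12.16, 12.25 and 12.20 in wt-progerin (difference -0.13, adjusted p = 0.115). It passed once the dimmer 50% of genes were dropped and with the trended, robust variance prior, under which the adjusted p fell to 0.00705. IPO5, a carrier of ribosomal proteins and histones, depended on the probe set. The brighter one differed by -0.08 (adjusted p = 0.366 with every probe set tested) and the dimmer one by -0.57 (adjusted p = 0.00641), and their mean also passed as lower. The dimmer one read 6.29, 6.35 and 6.12 in S22A-progerin, against 6.85, 6.65 and 6.97 in wt-progerin. Without a detection call, values that low may be background. IPO7, IPO4, IPO13, TNPO1 and TNPO2 had differences of -0.08 to 0.11 and did not pass.

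Exportins carry proteins and RNA out of the nucleus, and 3 of the 4 measured genes were lower (75%), with a median of -0.24. The background was 14.6% lower over all genes and 25.6% in the brightest tertile. XPO6, the carrier of actin and profilin, read 11.31, 11.20 and 11.35 in S22A-progerin, against 11.60, 11.58 and 11.58 in wt-progerin (difference -0.30, adjusted p = 0.00954, limma). XPO4, a carrier of EIF5A and SMAD3, read 9.39, 9.32 and 9.35 in S22A-progerin, against 9.55, 9.61 and 9.63 in wt-progerin (difference -0.25, adjusted p = 0.014). XPO7 read 10.42, 10.41 and 10.30 in S22A-progerin, against 10.61, 10.63 and 10.62 in wt-progerin (difference -0.24, adjusted p = 0.0182). In all 3 genes the groups did not overlap. XPO4 did not pass without wt-progerin replicate 2 (adjusted p = 0.0542) or 3 (0.0614), and XPO7 did not pass without wt-progerin replicate 1 (0.0589), 2 (0.0639) or 3 (0.0634). XPO5, the exporter of microRNA precursors, differed by -0.06 (adjusted p = 0.416).

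**Figure D3:**
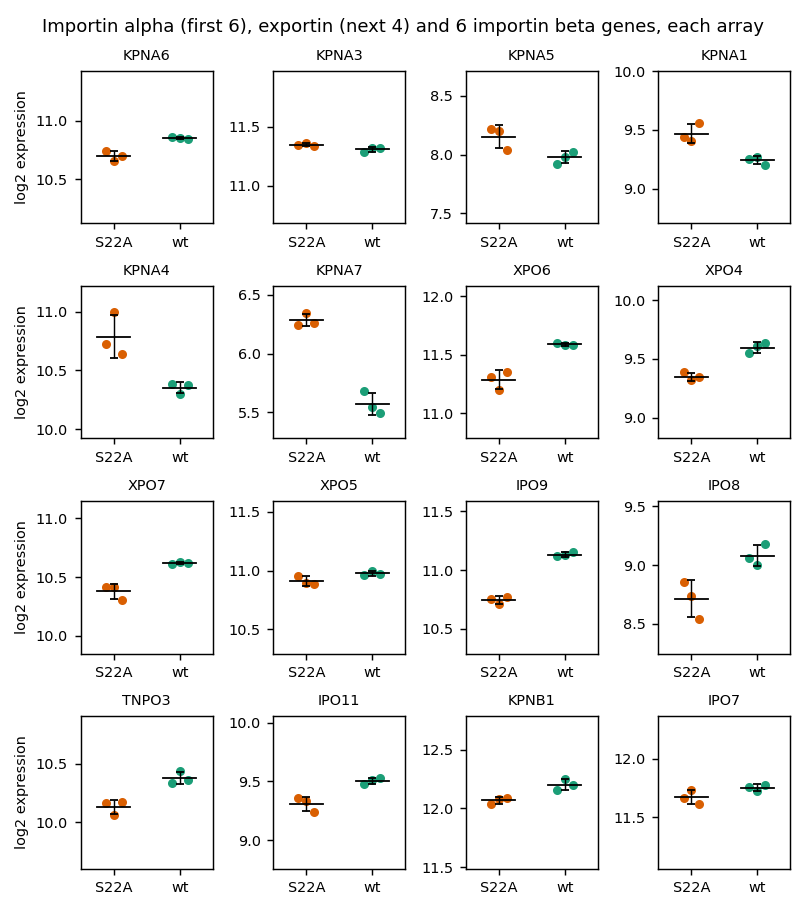
Log2 expression of the 6 importin alpha genes (KPNA6 to KPNA7), the 4 exportin genes (XPO6 to XPO5) and the 6 importin beta genes with the lowest differences in each array, S22A-progerin on the left of each panel and wt-progerin on the right. Points are arrays, lines are means and error bars are SDs (n = 3). KPNA1, KPNA4 and KPNA7 lie higher in S22A-progerin, IPO9 and XPO6 lie lower, and S22A-progerin replicate 2 of KPNA4 stands at 11.00.

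The 3 members that were not assigned a place here are relatives of structural genes. NUP210L, a paralogue of NUP210 known from testis, read 5.64, 5.87 and 5.88 in S22A-progerin, against 5.27 in each of the 3 wt-progerin arrays (difference 0.53, adjusted p = 0.00261, limma). That is opposite in sign to NUP210, though from a low level. NUP62CL, a relative of the channel gene NUP62, read 6.74, 6.84 and 6.79 in S22A-progerin, against 7.39, 7.45 and 7.27 in wt-progerin (difference -0.58, adjusted p = 8.46e-04). The pseudogene NUP210P1 overlapped between the groups (difference -0.05, adjusted p = 0.768). Sharing of signal between NUP210 and its copies was not tested.

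Genes of the Ran cycle and of RNA export, which work with these receptors, were read as a separate list. Of 31 measured genes on it, 6 were lower (19.4%) and none higher, with a median of -0.12. That share lies near the background, at 14.6% lower over all genes and 25.6% in the brightest tertile. The same list of 43 includes RAN and RCC1, which were not analysed here. RANBP1, which helps RanGAP end the Ran cycle, read 9.49, 9.48 and 9.17 in S22A-progerin, against 9.90, 9.92 and 9.95 in wt-progerin (difference -0.54, adjusted p = 0.0054, limma). SENP1, a SUMO protease found at the pore, differed by -0.33 (adjusted p = 0.00291). MCM3AP, which encodes the mRNA export scaffold GANP, differed by -0.32 (adjusted p = 0.00334).

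CSE1L is the exportin that returns importin alpha to the cytoplasm, and so belongs to the same cycle as the KPNA genes. It read 12.53, 12.52 and 12.57 in S22A-progerin, against 12.79, 12.78 and 12.77 in wt-progerin (difference -0.24, adjusted p = 0.0122, limma). SNUPN, the import adaptor of spliceosomal particles, and NEMP1, a nuclear envelope protein, were the other lower genes, at -0.29 and -0.24. On the positive side EIF5A (0.17, adjusted p = 0.051), TOR1AIP1 (0.13), RANGAP1 (0.09) and DDX19A (0.07) did not pass. The count of lower genes on this list was 3 without wt-progerin replicate 1. It came to 14 once the dimmer 50% of genes were dropped and to 13 with the trended, robust prior. Lower calls rose over all genes too, from 2176 of 14884 to 2365 of 7442 and 2645 of 14884 in those fits.

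Proliferation markers were lower beside the pore genes. The 12 markers were chosen with earlier results of these data known. All 12 passed as lower, with a median of -0.58, against 14.6% of all genes and 25.6% of those in the brightest tertile. MKI67, the Ki-67 antigen of dividing cells, read 10.78, 10.74 and 10.88 in S22A-progerin, against 11.48, 11.53 and 11.60 in wt-progerin. TOP2A (-0.62), BUB1 (-0.56) and PLK1 (-0.48), genes of chromosome segregation, were lower as well. The mean of the 12 markers lay at 10.29 to 10.41 in S22A-progerin and at 10.88 to 10.94 in wt-progerin. By the same measure the 51 pore and transport genes lay at 9.42 to 9.46 in S22A-progerin and 9.58 to 9.60 in wt-progerin. The part of proliferation in the pore gene results was not tested, and in bulk RNA fewer cells with a transcript cannot be told apart from less transcript per cell.

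**Figure D4:**
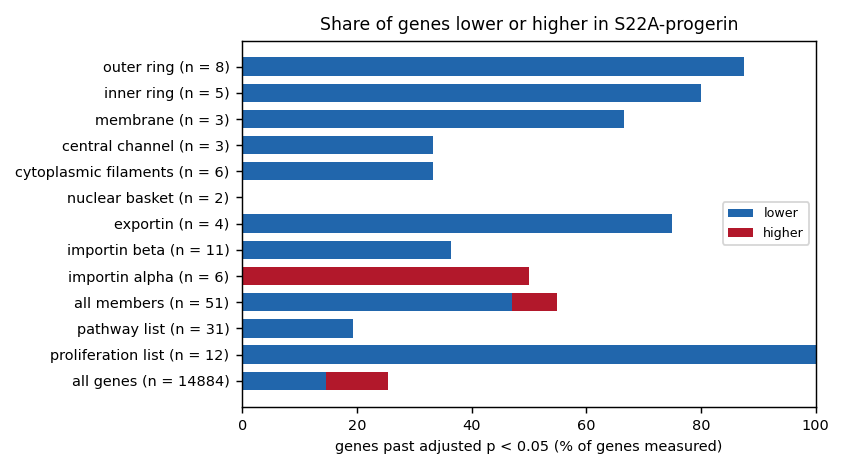
Share of measured genes that passed as lower or higher in S22A-progerin, in percent of the genes of each set, for each place in the pore, each transport family, all 51 members, the Ran cycle and export list, the proliferation markers and all genes. In the fit to all genes the outer ring reaches 87.5% lower, the importin alpha genes 50% higher and none lower, and all genes 14.6% lower and 10.8% higher.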

How the data were processed

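Expression was measured on 6 Affymetrix whole-transcript arrays. The authors deposited log2 values that, per the submitters' processing notes, came from RMA as run by Affymetrix Expression Console. That method subtracts background, aligns the arrays by quantiles and combines the probes of a probe set. No version or genome build was found in the labels. Without a detection call, low values may be background. The number of arrays limits the precision.

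Of 53617 probe sets, 16098 carried 1 gene symbol, 0 carried several and the rest were not named here. Of the 14884 genes, 779 had several probe sets, and the one with the highest mean over the 6 arrays was used. The test was limma's moderated two-sided test (limma 3.58.1 in R 4.3.3, lmFit then eBayes) between the 2 groups, with neither covariates nor a filter on low values. Calls were made at an adjusted p under 0.05 (Benjamini-Hochberg over all genes). Promoters came from RefSeq (GRCh38.p14).

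The members, lists and alternatives were chosen with earlier results of these data known. Values in every array are given for NUP210, NUP155, NUP107 and NUP88, for members called with a difference of at least 0.3, and for the gene with the smallest p and the one with the highest mean in each place. Up to 4 genes per other list with the smallest p in each direction were named. Others were named after their values were seen, among them members that lost or gained a call. Protein features were not analysed here. The code was tested on simulated data. No pairing by replicate number was seen in the values, and the main fit used none.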

Additional observations from a re-analysis of the deposited data

How the results depend on the processing

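The count of 24 lower members was 21 after a repeated quantile normalization, 25 with array medians aligned and 29 of 46 tested once the dimmer 50% of genes were dropped. Of all genes in those fits, 2060 of 14884, 2457 of 14884 and 2365 of 7442 were lower, against 2176 of 14884 in the main fit. With 1 array left out, 17 to 23 members were lower, the fewest without wt-progerin replicate 3. The 4 higher members became 2 to 4, the fewest without wt-progerin replicate 2. At an adjusted p under 0.01, 2 members were higher, 3 genes of the Ran cycle and export list were lower, and 1226 of all genes were lower and 852 higher, since the threshold is stricter. Of 28 called members, 19 kept the call in every alternative at the threshold of 0.05 that tested them, and 9 lost it at least once. No called member changed sign. The Ran cycle and export list, with 6 lower and 0 higher, had 14 lower and 2 higher with the dimmer genes dropped, where fewer genes were tested, and 13 and 2 with the trended, robust prior. Over all genes, 2365 of 7442 were lower and 1369 higher with the dimmer genes dropped. With that prior, 2645 of 14884 were lower and 1844 higher. The Ran cycle and export list had 1 higher gene after a repeated quantile normalization and 1 with array weights. Leaving out 1 array gave 3 to 6 lower genes on it. The cause of these shifts was not tested. With the replicate number as a fixed block, 17 members were lower and 3 higher, and as a random block 24 and 4. Deviations of same-numbered arrays correlated at -0.019, -0.055 and -0.0056, so no pairing by number was seen in the values. These correlations cannot show whether the replicates were handled in pairs. The number of arrays limits the precision, and the values of NUP210L and KPNA7 may lie near background. Those of NUP210 and NUP62CL in S22A-progerin were low as well.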
